A study of Mus musculus with 4 samples.

Results

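The 7 aquaporin genes Aqp1, Aqp2, Aqp3, Aqp4, Aqp6, Aqp7 and Aqp11 were described across 4 mouse kidney sections. They were taken by gene symbol and are 7 of the 32285 genes in the files. The 5 other aquaporin genes in the files, Mip, Aqp5, Aqp8, Aqp9 and Aqp12, were set beside them. All mice were male wild-type C57BL/6J of 7 to 8 weeks. The 2 normal sections came from control left kidneys. The 2 ischemic sections came from left kidneys taken 24 h after a clamp on both renal pedicles for 30 min. Sections were 10 µm thick and lay on 4 capture areas of 1 Visium slide, an array of barcoded spots that captures polyadenylated RNA from the tissue above it, each spot covering several cells. The labels did not tie the sections to single mice, so p-values measure the spread between sections, which may be technical. Each section had its own capture area, so section and capture area cannot be told apart.

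Aquaporins are membrane channels that let water cross cells along osmotic gradients, and some of them also pass glycerol or other small solutes. In the kidney, Aqp1 is the constitutive water channel of the proximal tubule, the thin descending limb and the descending vasa recta, and red blood cells carry it too. Aqp2 is the channel that vasopressin moves to the apical membrane of collecting duct principal cells, and Aqp3 and Aqp4 form the exit path on the basolateral side of those cells. In mice, Aqp4 is also found in the straight part of the proximal tubule. Aqp7 is a water and glycerol channel of the straight proximal tubule and of adipocytes. Aqp11 resides in intracellular membranes of proximal tubule cells, and Aqp6 in vesicles of acid-secreting intercalated cells.

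On GRCm38, Aqp2 (chromosome 15, 99579055 to 99584547), Aqp5 (99590782 to 99594829) and Aqp6 (99601400 to 99605477) stood in a row on the plus strand, with 6234 and 6570 bases between them. Aqp7 (41033074 to 41048139) and Aqp3 (41092722 to 41098183) stood 44582 bases apart on the minus strand of chromosome 4. Aqp1 was at 55336432 to 55348555 on chromosome 6 and Aqp11 at 97724006 to 97738289 on chromosome 7. No other annotated gene overlapped these 6 members. Aqp4 overlapped an antisense transcript, AC133525.2, on the opposite strand, and whether strand was used in counting was not stated in the sources read here.

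The 250 bases before the RefSeq start are printed for 3 members on which the results turn, Aqp2, which fell in the inner medulla, Aqp7, which fell in the outer stripe and rose in the cortex, and Aqp1, which fell in every zone. The build is GRCm38.p6, the sequences read 5′ to 3′ on the strand of the gene, and the windows are chr15:99578806-99579055 on the plus strand, chr4:41048137-41048386 on the minus strand and chr6:55336049-55336298 on the plus strand. Capitals mark matches on either strand to the motifs searched. The cAMP response element was searched as TGACGTCA, which 1.55% of 32851 promoter windows of the same length held, and by its shorter form TGACG, which lies within it and which 17.8% held. The NFAT core was searched as TGGAAA, held by 18.6%, and the GATA core as GATAA, held by 22.6%. The AP-1 element was searched by its letters TGANTCA, held by 6.75%.
Aqp2: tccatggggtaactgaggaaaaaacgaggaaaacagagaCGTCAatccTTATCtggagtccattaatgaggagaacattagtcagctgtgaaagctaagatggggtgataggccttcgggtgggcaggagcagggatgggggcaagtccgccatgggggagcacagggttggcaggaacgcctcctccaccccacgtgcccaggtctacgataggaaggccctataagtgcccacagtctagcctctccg
Aqp7: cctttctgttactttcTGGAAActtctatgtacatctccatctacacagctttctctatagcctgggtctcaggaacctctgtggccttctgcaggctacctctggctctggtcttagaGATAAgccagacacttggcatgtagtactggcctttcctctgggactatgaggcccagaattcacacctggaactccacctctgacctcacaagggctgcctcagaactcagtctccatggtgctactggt
Aqp1: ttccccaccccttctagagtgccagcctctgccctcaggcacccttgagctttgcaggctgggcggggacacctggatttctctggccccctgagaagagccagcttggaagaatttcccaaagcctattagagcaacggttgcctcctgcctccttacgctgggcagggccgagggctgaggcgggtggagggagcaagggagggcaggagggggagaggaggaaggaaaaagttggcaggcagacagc
The Aqp2 window held 1 TGACG match on the minus strand, beginning 211 bases before the start, and 1 GATAA match beginning at 202 bases. The Aqp7 window held 1 TGGAAA match and 1 GATAA match, and the window of a second RefSeq start of Aqp7 held none. The Aqp1 window held none of the 5 motifs. These matches describe the letters of the window and were not tied to any measured value.

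The sections held 25957128 to 44528078 unique molecular identifiers (UMIs, each 1 captured molecule) over 10312 tissue spots. Levels are given as CPM, the UMIs of a gene scaled to a fixed total of all UMIs in that section or zone (counts per 1e6). Spots rich in urothelial genes were placed in the pelvis, and the others in the cortex, the outer stripe or inner stripe of the outer medulla, or the inner medulla by their highest marker score. Aqp2 was kept out of the scores. Many of those marker genes fell after ischemia, so a zone in an ischemic section may not hold the same tissue as in a normal one. Fewer cells of a type and less RNA per cell cannot be told apart in such sums. The injury genes Havcr1, Lcn2 and Krt20 summed to 6.3 and 10.7 CPM in normal sections and to 4689 and 5281 CPM in ischemic sections.

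All 7 members were detected in all sections, and every one passed the filter on low counts in every zone. Normal kidneys were compared with ischemic ones first over whole sections. Of the 7 members, 5 were lower after ischemia, and the fall was largest for Aqp1 and Aqp11. Aqp1 stood at 557 and 544 CPM in normal sections 1 and 2 and at 126 and 173 CPM in ischemic sections 1 and 2. The groups did not overlap, and the log2 fold change was -2.16 (SE 0.19, adjusted p = 1.32e-05, edgeR quasi-likelihood test), a 4.48-fold lower level. Aqp11 stood at 55.6 and 46.0 CPM in normal sections and at 18.3 and 16.7 CPM in ischemic ones, a log2 fold change of -1.83 (SE 0.17, adjusted p = 1.98e-05, edgeR). Aqp7 stood at 17.3 and 15.98 CPM against 9.73 and 9.82 CPM, a log2 fold change of -1.06 (SE 0.14, adjusted p = 0.000189, edgeR). All 3 of these genes are made in the proximal tubule. Aqp1 is also made in thin descending limbs, vasa recta and red blood cells, and Aqp7 also in adipocytes. For each of the 3 genes both ischemic sections lay below both normal ones. Their falls passed the test in all 12 alternative analyses. The share of all genes whose sections lay apart in this way is not given here.

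The members of the collecting duct changed less over whole sections. Aqp2 stood at 284 and 369 CPM in normal sections and at 247 and 367 CPM in ischemic ones, so the groups overlapped (log2 fold change -0.35, SE 0.18, adjusted p = 0.122, edgeR). Aqp3 stood at 35.9 and 59.1 CPM against 40.9 and 53.0 CPM, with both ischemic sections between the normal ones (log2 fold change -0.26, SE 0.16, adjusted p = 0.192, edgeR). Aqp6 stood at 11.8 and 16.4 CPM against 10.8 and 12.2 CPM, and was called lower although its groups overlapped on the CPM scale (log2 fold change -0.55, SE 0.12, adjusted p = 0.00385, edgeR). Aqp4 stood at 19.1 and 18.7 CPM against 10.5 and 19.7 CPM, and only ischemic section 1 lay below the normal ones (log2 fold change -0.62, SE 0.24, adjusted p = 0.0461, edgeR). Without ischemic section 1, Aqp4 had a log2 fold change of -0.22 (adjusted p = 0.354, edgeR) and Aqp6 one of -0.45 (adjusted p = 0.0606, edgeR). Without normal section 1, Aqp2 was called lower at -0.40 (adjusted p = 9.01e-06, edgeR) and Aqp3 at -0.47 (adjusted p = 3.69e-08, edgeR), and without normal section 2 Aqp2 was called at -0.32 (adjusted p = 0.000216, edgeR).

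These 5 lower calls of 7 stand against a background of 60.6% of 15305 genes called in either direction, 29.7% lower and 31.0% higher. The median log2 fold change of the members was -0.62, beside 0.04 over all genes tested. Fold changes were computed after TMM scaling, which takes the typical gene as unchanged, so a gene can be higher in CPM and lower in fold change. Scaling by library size alone raised the median of all genes by 0.27 on the log2 scale. It gave 5750 genes higher and 2829 lower in place of 4737 and 4542, and left 3 members called lower, Aqp1, Aqp7 and Aqp11. Aqp4 was then at -0.33 (adjusted p = 0.282, edgeR) and Aqp6 at -0.29 (adjusted p = 0.258, edgeR).

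**Figure D1:**
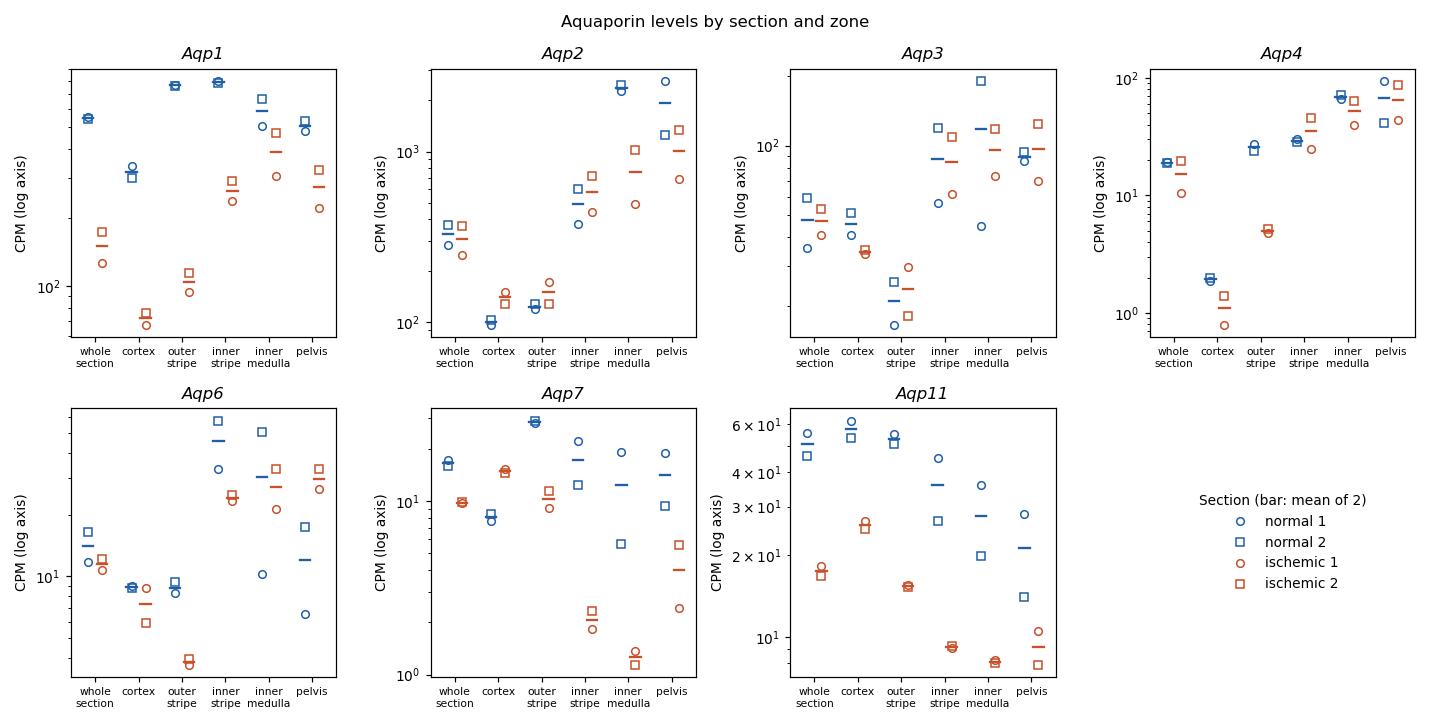
CPM (log axis) of each member in the 4 sections, over the whole section and in 5 zones; circles are section 1, squares section 2, blue normal and orange ischemic, and bars the mean of 2 sections. Aqp1 and Aqp11 lay lower in both ischemic sections in every zone, and Aqp7 lay higher in the cortex only, at 15.4 and 14.5 CPM against 7.68 and 8.43 CPM.

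Zones within normal sections were compared next, with the section as a block, to place each member along the axis from cortex to papilla. Aqp1 stood at 337 and 300 CPM in normal cortex, 772 and 764 CPM in the outer stripe, 802 and 786 CPM in the inner stripe and 507 and 668 CPM in the inner medulla. It was higher than in cortex by 1.43 (outer stripe) and 1.09 (inner stripe) on the log2 scale (adjusted p = 1.37e-08 and 5.19e-07, edgeR). The inner stripe lay just above the outer stripe in CPM but below it in TMM-scaled steps, and the inner medulla overlapped the pelvis in CPM. Aqp2 stood at 96.6 and 103 CPM in normal cortex and 119 and 128 CPM in the outer stripe, a difference that did not pass the test (log2 0.46, adjusted p = 0.298, edgeR). It rose to 378 and 604 CPM in the inner stripe and 2271 and 2467 CPM in the inner medulla, 4.20 above cortex on the log2 scale (SE 0.33, adjusted p = 5.13e-09, edgeR). Pelvis, at 2606 and 1246 CPM, overlapped the inner medulla.

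Aqp4 was nearly missing from the normal cortex. It stood at 1.88 and 1.98 CPM in cortex, from 39 and 24 UMIs, and at 27.3 and 24.0 CPM in the outer stripe, 3.92 higher on the log2 scale (SE 0.21, adjusted p = 3.36e-11, edgeR). Inner stripe levels of Aqp4, 30.1 and 28.3 CPM, lay just above those of the outer stripe, and inner medulla levels were 66.6 and 71.7 CPM. Aqp7 peaked in the normal outer stripe, at 28.0 and 29.0 CPM against 7.68 and 8.43 CPM in cortex (log2 difference 2.00, SE 0.20, adjusted p = 1.57e-07, edgeR). Its inner stripe level, 22.2 and 12.3 CPM, followed normal section 1: without that section the step from cortex was 0.21 (adjusted p = 0.692, edgeR) in place of 1.01. Aqp11 did not differ between normal cortex, 61.9 and 53.6 CPM, and outer stripe, 55.2 and 50.9 CPM, by the test (log2 0.03, SE 0.12, adjusted p = 0.889, edgeR), and fell toward the inner medulla.

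Aqp6 and Aqp3 had their own orders of zones. Aqp6 stood at 8.98 and 8.76 CPM in normal cortex, 8.26 and 9.34 CPM in the outer stripe and 33.5 and 57.4 CPM in the inner stripe, 2.03 above cortex on the log2 scale (SE 0.24, adjusted p = 2.21e-06, edgeR). Aqp3 was lowest in the normal outer stripe, 16.7 and 25.6 CPM, against 41.0 and 50.7 CPM in cortex (log2 difference -0.998, SE 0.27, adjusted p = 0.00952, edgeR; DESeq2 gave -1.01 with adjusted p = 0.0659). In the normal inner medulla both genes differed widely between sections, with Aqp3 at 44.7 and 191 CPM and Aqp6 at 10.2 and 50.8 CPM. Their calls above cortex there rested on normal section 2, without which Aqp3 was at -0.18 and Aqp6 at -0.12. Over the 3 zones tested against cortex, 3, 5 and 5 members were called higher in normal outer stripe, inner stripe and inner medulla and 1 lower in each, where 13.3%, 14.0% and 20.6% of 13905 genes were called higher, 10.6%, 14.6% and 21.1% lower and 23.9%, 28.6% and 41.7% in either direction.

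In ischemic sections the order of zones changed for some members. Against ischemic cortex, 2 members were called higher and 3 lower in the outer stripe, where 17.6% of genes were called higher, 20.1% lower and 37.7% in either direction. In the inner stripe 5 were higher and 2 lower (22.9%, 26.2% and 49.1% of genes), and in the inner medulla also 5 and 2 (22.4%, 26.7% and 49.0%). Of the 5 outer stripe calls, only that of Aqp4 was left without ischemic section 1 (1.86, adjusted p = 0.0364, edgeR) or 2 (2.53, adjusted p = 0.00826, edgeR). Without ischemic section 2, Aqp3 lost its higher calls in the inner stripe (0.49, adjusted p = 0.383, edgeR) and inner medulla (0.72, adjusted p = 0.191, edgeR), as did Aqp6 (1.05 and 0.88, adjusted p = 0.108 and 0.2, edgeR). Aqp7, which peaked in the outer stripe of normal sections, had its highest ischemic level in cortex with steps from cortex to inner stripe and inner medulla of -3.1996 and -3.94 on the log2 scale (SE 0.40 and 0.50, adjusted p = 1.25e-06 and 1.55e-06, edgeR). The steps of Aqp4 from ischemic cortex were 2.17 to the outer stripe, 4.63 to the inner stripe and 5.15 to the inner medulla (adjusted p = 9.57e-05, 6.15e-11 and 9.31e-12, edgeR), against 3.92, 3.72 and 4.85 in normal sections.

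Ischemic and normal sections were then compared within each zone. In the outer stripe, the zone of the straight proximal tubule, 5 of 7 members fell and 0 rose, against 33.1% of 13320 genes called lower, 34.6% called higher and 67.7% called in either direction. Aqp1 fell from 772 and 764 CPM to 94.3 and 114 CPM, a log2 fold change of -3.26 (SE 0.13, adjusted p = 4.45e-15, edgeR) or 9.59-fold. Aqp4 fell from 27.3 and 24.0 CPM to 4.77 and 5.20 CPM (log2 -2.76, SE 0.17, adjusted p = 2.72e-12, edgeR). Aqp11 fell from 55.2 and 50.9 CPM to 15.5 and 15.3 CPM (log2 -2.17, SE 0.12, adjusted p = 7.27e-13, edgeR), with the ischemic sections almost at the same level. Aqp7 fell from 28.0 and 29.0 CPM to 9.06 and 11.4 CPM (log2 -1.87, SE 0.13, adjusted p = 5.02e-11, edgeR). Aqp6 fell from 8.26 and 9.34 CPM to 3.72 and 3.96 CPM (log2 -1.57, SE 0.20, adjusted p = 4.72e-07, edgeR). For each of these 5 genes the groups lay apart, and each passed the test in all 14 alternatives. The share of all genes whose groups lay apart is not given here, so this describes the 5 genes only.

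Aqp2 and Aqp3 did not pass the test in the outer stripe. Aqp2 stood at 119 and 128 CPM in normal sections and at 171 and 128 CPM in ischemic ones (log2 -0.09, SE 0.12, adjusted p = 0.478, edgeR). With library size scaling Aqp2 had the opposite sign and was called, at 0.28 (adjusted p = 0.0343, edgeR), so no direction is given for it. Aqp3 stood at 16.7 and 25.6 CPM against 29.6 and 18.2 CPM, with overlapping groups (log2 -0.14, SE 0.17, adjusted p = 0.451, edgeR). Leaving out ischemic section 1 or normal section 1 put Aqp3 at -0.55 and -0.35, both past the test (adjusted p = 0.00479 and 0.0132, edgeR). The 5 marker genes of the straight proximal tubule fell with Aqp1, Aqp4 and Aqp7 there, from summed levels of 3130 and 3043 CPM to 458 and 485 CPM, and their part in those falls was not tested. Genes of the straight tubule were also used to place spots in this zone.

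**Figure D2:**
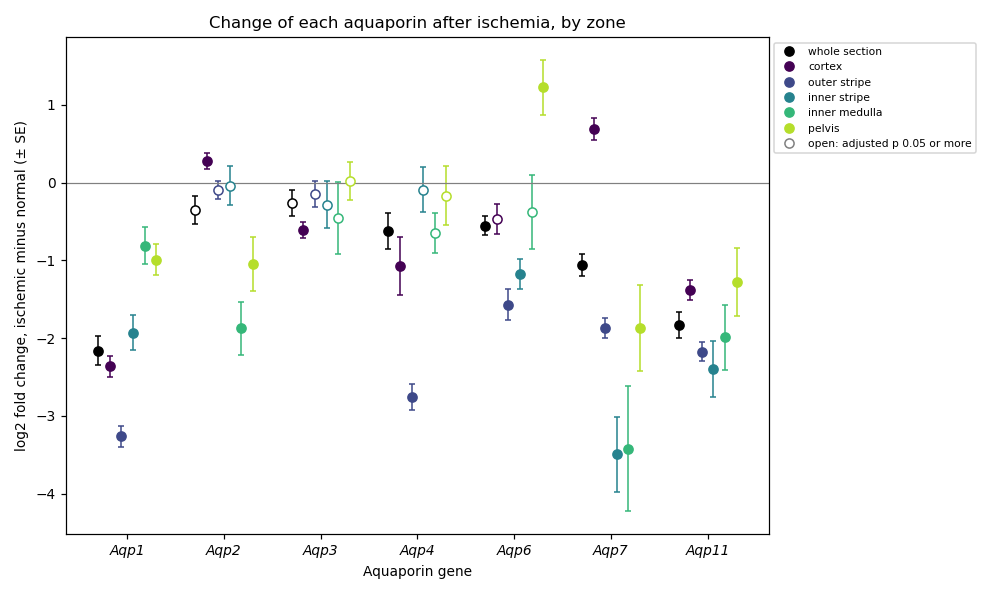
Log2 fold change, ischemic minus normal, of each member with its SE, for the whole section and 5 zones; filled points passed the test at an adjusted p under 0.05 and open points did not. Aqp7 stood at 0.69 in the cortex and between -1.87 and -3.49 in the other zones, and Aqp2 passed below 0 in the inner medulla and pelvis.

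In the cortex, 4 members fell and 2 rose, against 24.1% of 13543 genes called lower, 25.6% called higher and 49.8% called in either direction. Aqp1 fell from 337 and 300 CPM to 67.4 and 76.0 CPM (log2 -2.36, SE 0.13, adjusted p = 1.44e-09, edgeR) and Aqp11 from 61.9 and 53.6 CPM to 26.5 and 24.9 CPM (log2 -1.38, SE 0.13, adjusted p = 4.03e-07, edgeR). Aqp7, in contrast, rose from 7.68 and 8.43 CPM to 15.4 and 14.5 CPM, a log2 fold change of 0.69 (SE 0.14, adjusted p = 0.00096, edgeR). The groups of Aqp7 did not overlap, its rise held with each section left out and with DESeq2 (0.68, adjusted p = 0.0262), and it missed the test when all zones were fitted jointly (0.67, adjusted p = 0.066, edgeR). The 5 straight proximal tubule markers did not rise with Aqp7 in the cortex: their summed level fell from 816 and 702 CPM to 190 and 189 CPM, and that of the 7 proximal tubule markers from 5318 and 5400 CPM to 1252 and 1286 CPM. Slc22a6, an organic anion transporter of that list, stood at 453 and 441 CPM against 419 and 443 CPM (log2 -0.26, adjusted p = 0.0753, edgeR). Slc22a6 and most others of that list were also used to place spots in the cortex. Genes of the straight tubule were used to place spots in the outer stripe, so both summed levels partly follow the placement.

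Aqp3 fell in the cortex from 41.0 and 50.7 CPM to 33.7 and 35.1 CPM (log2 -0.61, SE 0.10, adjusted p = 0.000171, edgeR; -0.62 with adjusted p = 0.174 in the joint fit). Aqp2 was called higher there, at 151 and 128 CPM against 96.6 and 103 CPM (log2 0.28, SE 0.11, adjusted p = 0.038, edgeR). The Aqp2 call was lost with DESeq2 (0.27, adjusted p = 0.13) and without ischemic section 1 (0.17, adjusted p = 0.505, edgeR) or 2 (0.40, adjusted p = 0.0728, edgeR). Aqp4 was called lower on 39 and 24 normal and 10 and 13 ischemic UMIs (log2 -1.07, adjusted p = 0.0276, edgeR), a call that was lost without ischemic section 1 (-0.67, adjusted p = 0.349, edgeR) and without normal section 1 (-1.02, adjusted p = 0.0591, edgeR). Aqp6 stood at 8.98 and 8.76 CPM against 8.75 and 5.90 CPM (log2 -0.47, SE 0.19, adjusted p = 0.059, edgeR), and passed the test without ischemic section 1 (-0.79, adjusted p = 0.0091, edgeR) or normal section 2 (-0.58, adjusted p = 0.00264, edgeR).

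Since adipocytes express Aqp7, spots rich in adipocyte genes were counted. There were 121 such spots in normal section 1, 54 in normal section 2 and 0 in either ischemic section, and they held 4.42% and 2.71% of the normal sections' Aqp7 UMIs at 28.7 and 27.8 CPM. Without them, the log2 fold change of Aqp7 was 0.77 in the cortex (adjusted p = 0.000448, edgeR) and -1.87 in the outer stripe (adjusted p = 7e-11, edgeR). In the inner medulla, where normal section 1 had Adipoq at 174 CPM, Aqp7 no longer passed the count filter without those spots, nor did it in the pelvis.

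In the inner stripe, 4 of 7 members fell and 0 rose, against 22.9% of 12267 genes called lower, 20.6% higher and 43.4% in either direction, and Aqp7 had the largest fold. It went from 22.2 and 12.3 CPM to 1.82 and 2.31 CPM, the ischemic values resting on 7 and 9 UMIs (log2 -3.49, SE 0.49, adjusted p = 0.000554, edgeR). Aqp11 fell from 45.1 and 26.6 CPM to 9.09 and 9.24 CPM (log2 -2.39, SE 0.36, adjusted p = 0.000814, edgeR), Aqp1 from 802 and 786 CPM to 236 and 289 CPM (log2 -1.93, SE 0.22, adjusted p = 0.000198, edgeR), and Aqp6 from 33.5 and 57.4 CPM to 23.4 and 24.9 CPM (log2 -1.17, SE 0.19, adjusted p = 0.00124, edgeR). All 4 groups lay apart, again without the share of all genes beside it. Aqp2 stood at 378 and 604 CPM against 440 and 723 CPM, Aqp3 at 56.2 and 119 CPM against 61.3 and 109 CPM, and Aqp4 at 30.1 and 28.3 CPM against 24.9 and 45.4 CPM. These groups overlapped (adjusted p = 0.924, 0.476 and 0.829, edgeR). Aqp4 thus passed the test in the outer stripe and not in the inner stripe. The stripes were not tested against each other, and further on each is compared with the cortex.

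The largest fold change of Aqp2 among the 5 zones was in the inner medulla. It fell from 2271 and 2467 CPM in normal sections to 495 and 1029 CPM in ischemic ones (log2 -1.87, SE 0.34, adjusted p = 0.00483, edgeR), a 3.66-fold lower level, and the groups lay apart. Without ischemic section 1 the change was -1.41 (adjusted p = 0.0837, edgeR), and with zones assigned from single spots it was -1.10 (adjusted p = 0.0118, edgeR). Aqp7 fell to 1.37 and 1.14 CPM, from 4 and 3 UMIs (log2 -3.42, adjusted p = 0.0146, edgeR; -2.14 without normal section 1, and adjusted p = 0.087 without ischemic section 2). Aqp11 fell from 35.9 and 19.8 CPM to 8.23 and 8.00 CPM (log2 -1.99, adjusted p = 0.00919, edgeR; adjusted p = 0.0612 without ischemic section 2). Aqp1 fell from 507 and 668 CPM to 306 and 473 CPM (log2 -0.81, adjusted p = 0.0362, edgeR), a call lost without ischemic section 1 (-0.50, adjusted p = 0.511, edgeR) or 2 (-1.11, adjusted p = 0.104, edgeR). Aqp3, Aqp4 and Aqp6 did not pass the test, with log2 fold changes of -0.46, -0.65 and -0.38 (adjusted p = 0.495, 0.0938 and 0.582, edgeR). Without normal section 1 all 3 were called lower, at -1.03, -0.50 and -0.92, and without normal section 2 Aqp4 was called lower at -0.80 while Aqp3 and Aqp6 were called higher at 0.67 and 0.98, so no direction is given for those 2 genes. The 4 lower calls and 0 higher calls stand against 18.3% of 11509 genes called lower, 12.2% higher and 30.5% in either direction.

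The spots placed in the inner medulla were not alike between conditions. Summed haemoglobin and Alas2 levels there were 50984 and 18151 CPM in normal sections against 585 and 927 CPM, and summed urothelial genes were 815 and 1993 CPM against 6.9 and 57.1 CPM. Umod, a gene of the thick ascending limb, stood at 2436 and 4376 CPM against 5545 and 5413 CPM, and Akr1b3, an osmolyte enzyme of the papilla, at 1669 and 1141 CPM against 133 and 196 CPM. Slc14a2, the urea transporter gene, went the other way, from 152 and 445 CPM to 954 and 770 CPM. Slc14a2 and Akr1b3 were also used to place spots in this zone, and Umod to place them in the inner stripe. The levels of these genes here thus partly follow the placement. The depth of the cut into the papilla and the condition cannot be told apart for Aqp2 in this zone. When inner medulla and pelvis were joined, Aqp2 was still lower (log2 -1.51, adjusted p = 0.00654, edgeR). Summed proximal tubule markers in the inner medulla were 1767 and 1486 CPM in normal and 121 and 97.9 CPM in ischemic sections. In the inner stripe they were 1159 and 1276 CPM against 139 and 138 CPM. Their part in the falls of Aqp1, Aqp7 and Aqp11 in these zones was not tested.

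In the pelvis, with 106 to 135 spots a section, Aqp1, Aqp2, Aqp7 and Aqp11 were called lower and Aqp6 higher, against 14.6% of 10568 genes called lower, 10.7% higher and 25.3% in either direction. The 6 urothelial genes, by which the zone was placed, had summed levels of 5215 and 6336 CPM in normal pelvis and of 766 and 1116 CPM in ischemic pelvis, and 5 of them were called lower. The 5 intercalated cell markers went from 57.3 and 83.5 CPM to 162 and 204 CPM beside Aqp6, with 2 of 4 tested called higher and 1 lower, and their part in the Aqp6 call was not tested. Aqp6 stood at 6.53 and 17.4 CPM against 26.7 and 33.3 CPM (log2 1.23, adjusted p = 0.0234, edgeR), from 9 and 26 UMIs against 33 and 42. It was lost with DESeq2 (1.28, adjusted p = 0.201) and without normal section 1 (0.78, adjusted p = 0.106, edgeR) or ischemic section 2 (1.11, adjusted p = 0.0572, edgeR). Each of the 4 lower calls was lost when 1 section was left out. Without ischemic section 1, Aqp1 was at -0.75 (adjusted p = 0.0827, edgeR), Aqp2 at -0.65 (adjusted p = 0.255, edgeR), Aqp7 at -1.43 (adjusted p = 0.188, edgeR) and Aqp11 at -1.50 (adjusted p = 0.095, edgeR). Without normal section 1, Aqp2 was at -0.31, Aqp7 at -1.21 and Aqp11 at -0.61 (adjusted p = 0.470, 0.275 and 0.411, edgeR), and without ischemic section 2 Aqp11 was at -1.04 (adjusted p = 0.129, edgeR). Only 28.3% and 28.5% of the ischemic pelvis spots kept that zone when neighbouring spots were left out of the score, against 66.4% and 63.0% of the normal ones.

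**Figure D3:**
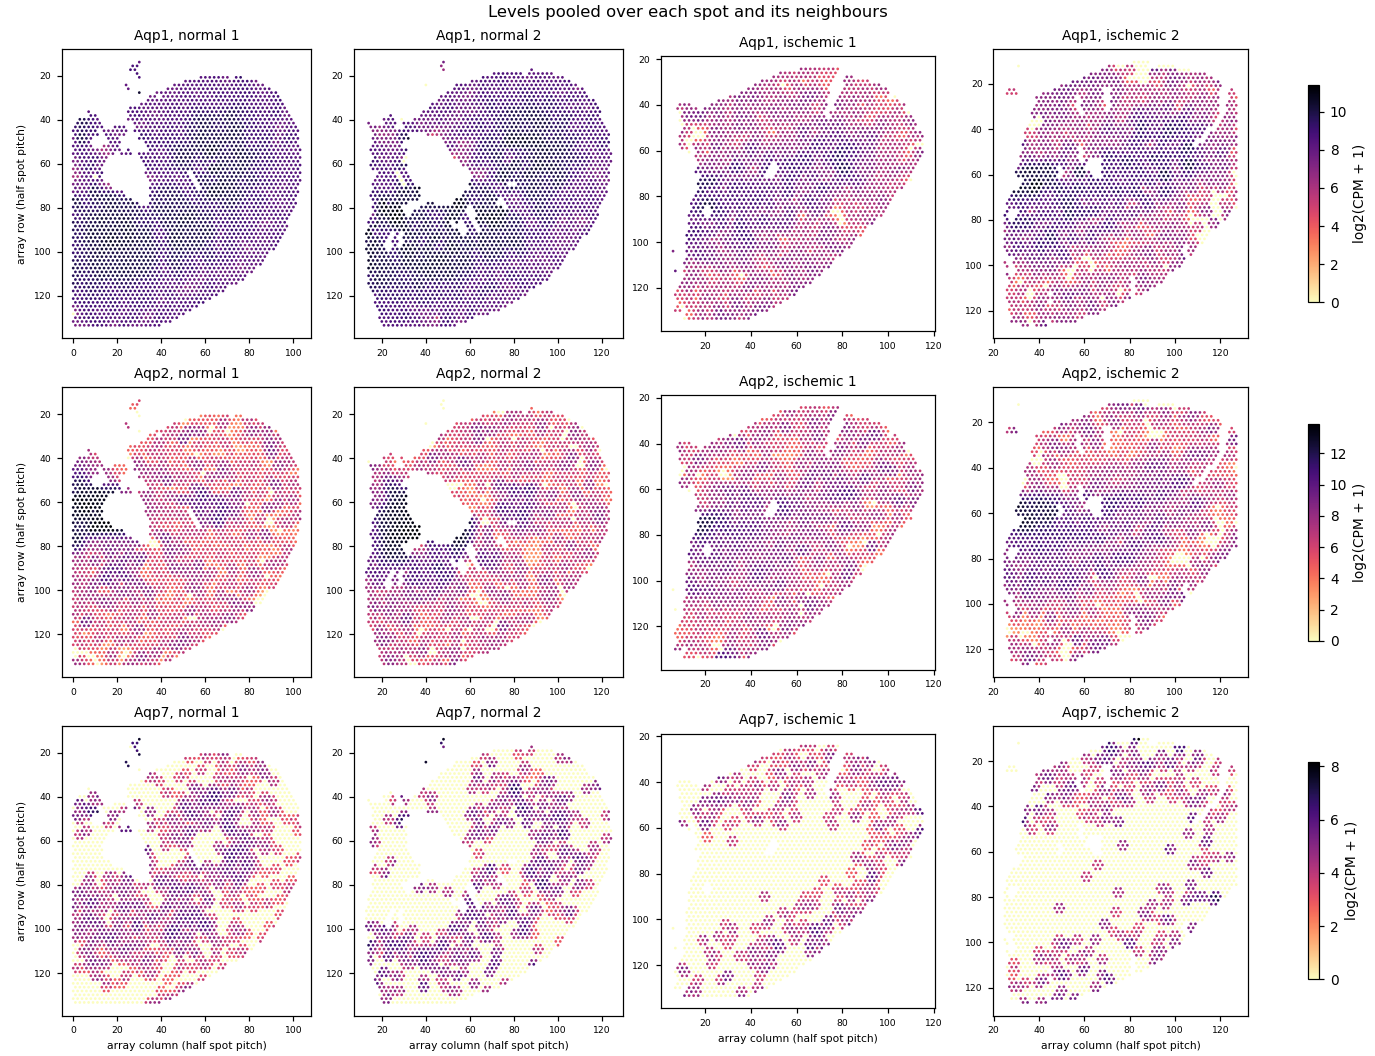
Level of Aqp1, Aqp2 and Aqp7 across the 4 sections as log2(CPM + 1), pooled over each spot and its neighbours, with 1 colour scale per gene; axes are array columns and rows. Aqp2 formed a dark patch at the hilum of both normal sections, and Aqp7 filled a broad ring in normal sections and a ring nearer the capsule in ischemic ones.

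The question whether a member changed differently between zones was tested directly, as the ischemic minus normal difference of each zone's step from cortex. Over the 3 zones, 9 of 21 such differences passed, 8 negative and 1 positive, where 22.8% of 13905 genes passed for the outer stripe (14.4% negative, 8.46% positive), 19.0% for the inner stripe (13.9% and 5.06%) and 15.5% for the inner medulla (11.8% and 3.66%). Aqp7 passed in all 3. Its step from cortex to outer stripe turned from 2.00 in normal sections to -0.59 in ischemic ones, a difference of -2.59 (SE 0.30, adjusted p = 3.57e-06, edgeR). The differences were -4.21 (SE 0.48, adjusted p = 2.03e-06, edgeR) for the inner stripe and -4.12 (SE 0.72, adjusted p = 0.000405, edgeR) for the inner medulla. Each held in all 14 alternatives, with adjusted p up to 0.0291. The ischemic step of -0.59 itself (adjusted p = 0.0436, edgeR) was not past the test without ischemic section 1 (-0.37, adjusted p = 0.618, edgeR) or 2 (-0.78, adjusted p = 0.205, edgeR).

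Aqp1 lost more in the outer stripe than in cortex and less in the inner medulla. The differences were -0.93 (SE 0.17, adjusted p = 0.000465, edgeR; -0.91 with adjusted p = 0.0534 without the section block) and 1.51 (SE 0.17, adjusted p = 3.85e-06, edgeR). In ischemic sections Aqp1 therefore had its highest mean level in the inner medulla, 306 and 473 CPM, against 94.3 and 114 CPM in the outer stripe. Aqp2 in the inner medulla gave a difference of -2.23 (SE 0.42, adjusted p = 0.000859, edgeR), its step from cortex going from 4.20 in normal to 1.97 in ischemic sections. Aqp4 gave -1.74 in the outer stripe (SE 0.52, adjusted p = 0.0192, edgeR), which did not pass without ischemic section 1 (-2.06, adjusted p = 0.102, edgeR) or 2 (-1.39, adjusted p = 0.319, edgeR). For Aqp4 in the inner stripe the difference was 0.91 (SE 0.45, adjusted p = 0.186, edgeR). Both Aqp4 differences rest on a cortex level from 39 and 24 normal and 10 and 13 ischemic UMIs. Aqp11 gave -0.81 (outer stripe) and -0.99 (inner stripe, adjusted p = 0.00579 and 0.0127, edgeR). Neither held without ischemic section 1 (-0.77 and -0.89, adjusted p = 0.203 and 0.260, edgeR) or 2 (-0.84 and -1.02, adjusted p = 0.136 and 0.174, edgeR), and the inner stripe one did not hold without normal section 1 (-0.46, adjusted p = 0.278, edgeR). Without normal section 2, 14 of the 21 differences passed in place of 9.

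These shifts can be read as where each gene's UMIs lay. The outer stripe held 56.4% and 64.7% of Aqp7 UMIs in normal sections and 31.5% and 39.6% in ischemic ones, while the cortex share went from 20.7% and 23.1% to 63.9% and 52.9%. The cortex held 46.5% and 43.7% of all UMIs in normal and 40.5% and 35.9% in ischemic sections, so the move of Aqp7 ran against that of the whole section. For Aqp4, the outer stripe share went from 49.7% and 45.6% to 15.3% and 9.0%, and for Aqp1 from 48.3% and 50.01% to 25.3% and 22.4%. Aqp11 kept a cortex share of 51.8% and 51.1% before injury and of 58.7% and 53.5% after it. No test was made on these shares.

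**Figure D4:**
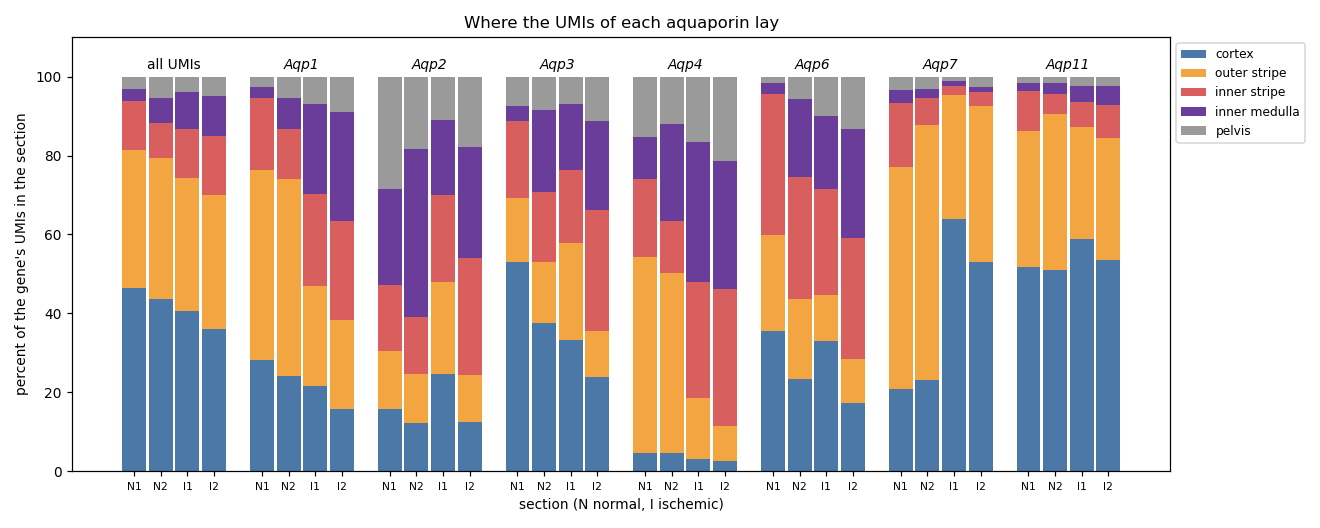
Percent of each member's UMIs in a section that lay in each of 5 zones, as stacked bars for normal (N1, N2) and ischemic (I1, I2) sections, with the share of all UMIs at the left. The cortex bar of Aqp7 rose from 20.7% and 23.1% to 63.9% and 52.9%, and the outer stripe bar of Aqp4 shrank.

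Members differed in the share of their UMIs that a few spots held. The 5% of spots with the highest Aqp2 level held 52.5% and 46.8% of its UMIs in normal sections and 35.6% and 41.1% in ischemic ones, while for Aqp1 they held 11.3% and 11.7% against 24.2% and 29.4%. For Aqp7 the shares were 31.5% and 46.2% in normal sections and 54.0% and 64.7% in ischemic ones, and for Aqp6 they were 54.0% to 60.3% in all 4 sections. At least 1 Aqp1 UMI was seen in 95.5% (95% Clopper-Pearson interval 94.6 to 96.2) and 88.1% (86.9 to 89.3) of normal spots and in 62.4% (60.5 to 64.4) and 58.3% (56.4 to 60.2) of ischemic spots, intervals that cover counting error only. With every spot thinned to 2000 UMIs these shares were 60.8%, 58.6%, 21.0% and 25.9%, after 48 to 150 shallower spots a section were left out. For Aqp2 the thinned shares were 21.3% and 26.1% of normal and 29.3% and 32.1% of ischemic spots. More ischemic spots thus held an Aqp2 UMI at equal depth, while its CPM over the section overlapped between conditions, so no order is read from these shares.

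Levels pooled over a spot and its neighbours were correlated between pairs of members across the 2401 to 2682 spots of each section, as a description, since neighbouring spots share UMIs. Aqp2 and Aqp3, the apical and basolateral channels of principal cells, had r of 0.49 and 0.53 in normal sections against 0.58 and 0.64 in ischemic ones. Aqp1 and Aqp7 had r of 0.47 and 0.22 in normal sections and -0.37 and -0.22 in ischemic ones. Aqp4 and Aqp7 had r of 0.30 and 0.13 in normal sections and -0.39 and -0.35 in ischemic ones. Aqp1 and Aqp4 kept r between 0.50 and 0.53 in all 4 sections.

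Aquaporin counts were also set against cell type markers, as log2 ratios, for which 2 against 2 sections cannot pass an exact permutation test. Per principal cell marker (Scnn1b, Scnn1g, Hsd11b2 and Fxyd4), the Aqp2 ratio of normal whole sections was 0.14 and -0.18 and that of ischemic ones -0.14 and 0.26, a mean difference of 0.08, with overlapping groups. Within cortex the Aqp2 ratio was -1.05 and -1.33 against -0.62 and -0.65, within the outer stripe -0.42 and -0.58 against -0.05 and 0.00, and within the inner stripe -0.25 and -0.46 against 0.09 and 0.36. In these 3 zones both ischemic sections lay above both normal ones. Aqp2 itself did not pass the test in either stripe, and Hsd11b2, a gene of the marker sum, was called lower over whole sections. The part of the markers in these ratios was not tested. In the inner medulla the ratios, 1.79 and 0.44 against -0.08 and 0.56, overlapped. Fxyd4 fell there too (log2 -1.32, adjusted p = 0.0187, edgeR), and Fxyd4 is also a marker used to place spots in this zone. The ratio of Aqp3 differed by 0.20, that of Aqp4 by -0.21 and that of Aqp6 by -0.09 over whole sections. Aqp6 belongs to intercalated cells and Aqp4 is also found in the straight proximal tubule. Principal cell markers are thus not markers of all cells that make these 2 genes.

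Per proximal tubule marker, the Aqp7 ratio of normal whole sections was -7.55 and -7.68 and that of ischemic ones -6.11 and -6.02, a mean difference of 1.55, and Aqp11 at -5.87 and -6.16 against -5.20 and -5.25, a difference of 0.79. In the cortex the Aqp7 ratio differed by 2.97 and the Aqp11 ratio by 0.91. The summed markers themselves fell there, from 5318 and 5400 CPM to 1252 and 1286 CPM. Most of these markers also placed spots in the cortex, so ratios by zone are descriptions. In the inner stripe the Aqp7 ratios, -5.71 and -6.70 against -6.26 and -5.90, overlapped. Aqp1 differed by 0.42 over whole sections, by -0.07 in cortex, where the groups overlapped, and by -0.73 in the outer stripe. Genes of the vasa recta and thin limbs, where Aqp1 is also made, were summed in the inner medulla. Their levels were 512 and 816 CPM in normal and 1376 and 1231 CPM in ischemic sections. That list holds Slc14a2, which rose there by itself and was also used to place spots in this zone. The summed red cell genes were lower in both ischemic sections in every zone. The part of these lists in the Aqp1 values was not tested.

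**Figure D5:**
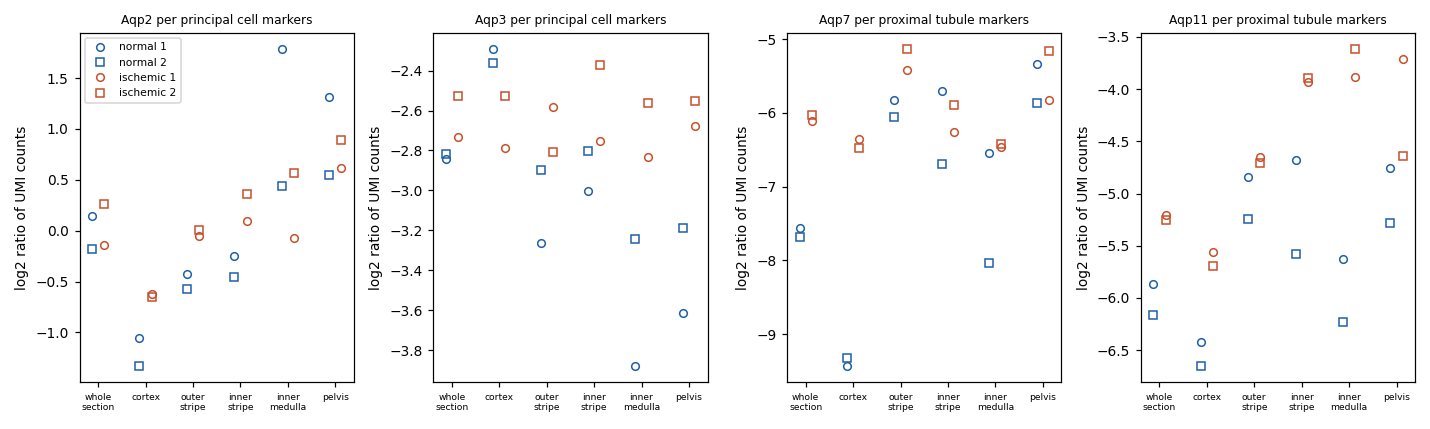
Log2 ratio of the UMI counts of Aqp2 and Aqp3 to principal cell markers, and of Aqp7 and Aqp11 to proximal tubule markers, in the 4 sections over the whole section and 5 zones; blue is normal, orange ischemic, circles section 1 and squares section 2. The Aqp7 ratio in cortex stood near -9.4 in normal and -6.4 in ischemic sections.

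Vasopressin acts on its V2 receptor, Avpr2, to raise cAMP through a stimulatory G protein and adenylyl cyclase, and protein kinase A then drives Aqp2 vesicles to the apical membrane and Aqp2 transcription. Of 21 genes of this pathway, 11 rose, 2 fell and 8 did not pass over whole sections, with a median log2 fold change of 0.29 beside 0.04 over all genes. Over all genes 31.0% were called higher, 29.7% lower and 60.6% in either direction. Only the share in either direction was near that of the list, whose genes were more often higher and less often lower. The 2 that fell were both receptors. Avpr2 fell from 21.4 and 28.3 CPM to 13.5 and 15.7 CPM (log2 -1.03, SE 0.11, adjusted p = 4.99e-05, edgeR), and it was lower in each of the 5 zones, by -2.02 in the inner medulla (adjusted p = 0.0007, edgeR). Avpr1a, the V1a receptor gene, had a log2 fold change of -1.01 (adjusted p = 0.00137, edgeR). The rises included the epithelial transcription factor Elf3, from 13.6 and 20.9 CPM to 40.6 and 52.2 CPM (log2 1.18, adjusted p = 0.000142, edgeR), the recycling GTPase Rab11a, from 126 and 140 CPM to 267 and 274 CPM (log2 0.75, adjusted p = 0.000538, edgeR), the kinase subunit Prkar2a (log2 0.81, adjusted p = 0.000141, edgeR), and Nfat5, the tonicity-responsive factor (log2 0.58, adjusted p = 0.00535, edgeR). Most of these genes are made in many kidney cell types, so their sums are not those of the collecting duct. Gnas, the stimulatory G protein gene, stood at 484 and 523 CPM against 548 and 598 CPM (log2 -0.09, adjusted p = 0.608, edgeR).

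In the inner medulla, where Aqp2 fell, 3 pathway genes rose (Prkacb, Prkar2a and Rab11a), 2 fell (Avpr2 and Gata2) and 16 did not pass, where 12.2% of all genes were called higher, 18.3% lower and 30.5% in either direction, so the list did not stand above the background. Gata2, a transcription factor of principal cells, went from 21.2 and 29.9 CPM to 14.7 and 16.8 CPM (log2 -0.92, SE 0.24, adjusted p = 0.0204, edgeR). Of the 6 principal cell markers, 2 fell over whole sections, Hsd11b2, the enzyme that keeps glucocorticoids from the mineralocorticoid receptor (log2 -1.10, adjusted p = 2.79e-05, edgeR), and Avpr2, while 4 did not pass, against 29.7% of all genes called lower. Scnn1b, a subunit of the epithelial sodium channel, stood at 29.4 and 37.3 CPM against 38.0 and 37.9 CPM (log2 -0.08, adjusted p = 0.476, edgeR). Beside the fall of Aqp6 in the stripes, the summed intercalated cell markers overlapped between conditions. Their sum was 191 and 307 CPM in normal against 219 and 301 CPM in ischemic inner stripe. In the outer stripe it was 71.6 and 81.1 CPM against 115 and 75.7 CPM. Single markers moved apart. Slc4a1, an anion exchanger of acid-secreting intercalated cells and of red blood cells, fell by -4.78 in the inner stripe (adjusted p = 1.46e-05, edgeR), while the proton pump subunit Atp6v0d2 rose by 0.96 (adjusted p = 0.00451, edgeR).

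Of the other aquaporins, Aqp8 was the only one called over whole sections, and it was higher. It stood at 1.21 and 0.94 CPM in normal and 3.35 and 3.39 CPM in ischemic sections (log2 1.32, SE 0.26, adjusted p = 0.00202, edgeR). In the outer stripe it went from 4 and 7 UMIs to 43 in each ischemic section, 0.26 and 0.71 CPM against 4.10 and 4.86 CPM (log2 2.94, SE 0.40, adjusted p = 1.37e-06, edgeR), and its step from cortex differed by 1.91 between conditions (adjusted p = 0.0177, edgeR). Aqp5 had 10 to 28 UMIs a section and did not pass (log2 -0.83, adjusted p = 0.128, edgeR). Aqp9 had 0 to 6 and Aqp12 1 to 2 UMIs a section, and neither was tested. Mip, the lens aquaporin, had 0 UMIs in all 4 sections, which allows at most 0.067 to 0.116 CPM by a floor of 3 UMIs.

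For each member, the 3 genes with the most similar pattern over the 20 sums of section and zone were listed by Pearson's r of log2(TMM-scaled CPM + 1), as a description over sums that share sections. For Aqp1 they were Wfdc15b (0.93), Fam107a (0.93) and Ppp1r1b (0.92). For Aqp2 they were Muc20 (0.98), Tmem30b (0.97) and Cacnb3 (0.97). For Aqp3 they were AI661453 (0.91), Mecom (0.89) and Tbc1d4 (0.88). For Aqp4 they were Fam181b (0.93), Epha4 (0.93) and Tmc4 (0.92), and for Aqp6 Itpkb (0.89), Kcnn2 (0.88) and Sim1 (0.87). For Aqp7 they were Slc38a3 (0.98), Psap (0.97) and Mogat1 (0.97), and for Aqp11 Smdt1 (0.99), Uqcrq (0.99) and Marc2 (0.99). No pair of members appeared in each other's list.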

How the data were processed

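RNA was measured with Visium spatial gene expression in 2 normal and 2 ischemic mouse kidney sections. The deposited files hold raw UMI counts per gene and spot, which the authors made with Space Ranger (1.3.0 in the matrix headers) on mm10, the annotation release being not given in the sources used here. Only spots over tissue were used. Every sample was grouped by its label, and 0 columns belonged to other samples.

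Counts were summed per section and per section and zone, since spots are not replicates, and tested with edgeR 4.0.16 in R 4.3.3 (quasi-likelihood test, TMM scaling, default filter on low counts, Benjamini-Hochberg adjustment over all genes tested, threshold 0.05). Zones were fitted separately for ischemic against normal, and jointly with the section as a block for steps from cortex and for their difference. A spot was scored with its 6 neighbours on each zone list, and the pelvis took spots with at least 10 urothelial counts in the top 5% of the section. DESeq2 1.42.0 was an alternative, and the scripts were tested on simulated data. Section totals of 25957128 to 44528078 UMIs set a floor of 3 UMIs at 0.0674 to 0.116 CPM. Levels, ratios, shares and correlations were computed in Python 3.11.15. Of the 32285 gene identifiers, 32158 matched GENCODE M21 on GRCm38. The genes named were the members, the other aquaporins, the pathway and marker lists, and the 3 genes most like each member. The members and the lists were chosen with earlier results of these data known, so counts over them are descriptions. Aqp4 sequence is not shown.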

Additional observations from a re-analysis of the deposited data

Results flagged for a closer look

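In 9 cases the ischemic minus normal change of a member differed between a zone and the cortex by an interaction test in edgeR, given here as the difference of the log2 steps from cortex. Aqp7, the glycerol channel of the straight proximal tubule, differed in the outer stripe by -2.59 (SE 0.30, adjusted p = 3.57e-06), in the inner stripe by -4.21 (SE 0.48, adjusted p = 2.03e-06) and in the inner medulla by -4.12 (SE 0.72, adjusted p = 0.000405). Its level rose in the cortex and fell in these 3 zones. Summed proximal tubule markers fell in the cortex and in these zones, and their part was not tested. Aqp2 in the inner medulla differed by -2.23 (SE 0.42, adjusted p = 0.000859), having been called higher in the cortex, a call that was lost without either ischemic section, and lower in the inner medulla.

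Aqp1 differed by -0.93 (SE 0.17, adjusted p = 0.000465) in the outer stripe and by 1.51 (SE 0.17, adjusted p = 3.85e-06) in the inner medulla. Aqp4 differed by -1.74 (SE 0.52, adjusted p = 0.0192) in the outer stripe. Aqp11 differed by -0.81 (SE 0.20, adjusted p = 0.00579) in the outer stripe and by -0.99 (SE 0.27, adjusted p = 0.0127) in the inner stripe. As given above, the Aqp4 and Aqp11 differences did not hold without ischemic section 1 or 2. With DESeq2 those of Aqp11 were -0.76 and -0.86 (adjusted p = 0.130 and 0.139). The ischemic sections lay lower than the normal ones for Aqp1 and Aqp11 in all zones, so these differences were in size and not in direction.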

How the results depend on the processing

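Over the named single results, 760 values under other settings kept direction and side of the threshold, 50 lost the call, 8 gained one and 10 changed sign, and the causes were not tested. Library size scaling raised the median of all genes by 0.08 to 0.38 on the log2 scale within zones and left 3 members called lower over whole sections in place of 5. The 3 calls of higher level within zones became 1 with DESeq2 and 0 in the joint fit of all zones, and the 9 zone differences became 5 without the section block. Signs changed for Aqp2 with library size (0.25 in the inner stripe, 0.28 in the outer stripe), without a count filter (0.0099 in the inner stripe), without boundary spots (0.10 in the outer stripe) and with zones from single spots (0.076 in the outer stripe). They changed for Aqp3 in the outer stripe with library size (0.21) and without boundary spots (0.0029), for Aqp4 with library size in the inner stripe (0.27) and single-spot zones in the inner medulla (0.088), and for Aqp6 in the inner medulla joined with the pelvis (0.24). The joined zone and, for steps from cortex and their differences, the run without adipocyte-rich spots were chosen after seeing the data.

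Leaving out each section, with a lone section assumed to vary like the others, gave 3 to 7 lower calls over whole sections, 1 to 5 higher calls within zones and 6 to 14 zone differences. Differences of marker ratios ranged from -0.12 to 0.28 for Aqp2, -0.58 to 0.16 for Aqp4 and -0.20 to 0.013 for Aqp6. Log2 fold changes ranged from -0.44 to 0.30 for Aqp2 in the inner stripe and -0.31 to 0.11 in the outer stripe. Aqp3 ranged from -1.03 to 0.67 in the inner medulla, -0.76 to 0.089 in the inner stripe and -0.55 to 0.16 in the outer stripe, and from -0.18 to 1.48 for its normal step from cortex to inner medulla. Aqp4 ranged from -0.57 to 0.31 in the inner stripe, and Aqp6 from -0.92 to 0.98 in the inner medulla and -0.12 to 2.10 for its normal step there.

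The replicate numbers of normal and ischemic sections share only a number (r = 0.16 of replicate differences across 15305 genes). With the replicate block, 7 members were lower over whole sections in place of 5, 23 within zones in place of 21, and 10089 genes were called in place of 9279. DESeq2 called 7534. Aqp7 had too few counts to be tested in the inner medulla without adipocyte-rich spots, without boundary spots or with Aqp2 and Cryab kept in the zone list, and in the pelvis without adipocyte-rich spots or with zones from single spots.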

Other observations

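The straight proximal tubule markers and Aqp7 went apart by zone. In the cortex the summed markers fell to 190 and 189 CPM while Aqp7 rose to 15.4 and 14.5 CPM, and in the outer stripe both fell. Genes of the straight tubule were used to place spots in the outer stripe, so the marker levels partly follow the placement. In ischemic sections Aqp7 stood at 1.82 and 2.31 CPM in the inner stripe and at 1.37 and 1.14 CPM in the inner medulla, its lowest zones.

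Aqp8 and Aqp9 UMIs of ischemic outer stripe were 43 and 43 for Aqp8 and 6 and 3 for Aqp9, against 4 and 7 for Aqp8 and 0 and 0 for Aqp9 in normal outer stripe. Aqp5, which lies between Aqp2 and Aqp6, had 14 and 15 of its 27 and 28 normal UMIs in the pelvis. The highest Aqp2 count in a single spot was 264 and 176 UMIs in normal and 67 and 99 UMIs in ischemic sections.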
